A study of Mus musculus with 48 samples.

Results

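The glutamate transporter genes examined here are 8 of the 47069 genes of the deposited mouse count table. They comprise the 3 vesicular transporters Slc17a6, Slc17a7 and Slc17a8 and 5 plasma membrane carriers of the SLC1 family, Slc1a1, Slc1a2, Slc1a3, Slc1a4 and Slc1a6. They were chosen by gene symbol and not by a measured value, and each matched 1 Ensembl identifier. Vesicular glutamate transporters load glutamate into synaptic vesicles and mark glutamatergic neurons. Slc17a7 (VGLUT1) is the main form of cortical pyramidal cells and cerebellar granule cells, Slc17a6 (VGLUT2) that of thalamic and brainstem neurons, and Slc17a8 (VGLUT3) is found in sparse populations that include striatal cholinergic interneurons. The plasma membrane carriers remove glutamate from the extracellular space with the sodium gradient: Slc1a2 (GLT-1) and Slc1a3 (GLAST) act mostly in astrocytes, Slc1a1 (EAAC1) in neurons and Slc1a6 (EAAT4) in Purkinje cells. Slc1a4 (ASCT1) belongs to the same family but exchanges neutral amino acids such as serine and alanine, so the label glutamate transporter holds for the family and not for its substrate.

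RNA was sequenced from cortex, striatum and cerebellum of 16 mice of the label strain C57BL/6N:129Sv. Of these, 8 carried the heterozygous 7qF3 deletion, which the labels call 16p11.2 Deletion after the syntenic human interval, and 8 were wild type. Each genotype held 4 males and 4 females, every animal gave all 3 regions, and no group received an agent or carried another labelled allele. The 6 groups thus held 8 libraries each. No age is used, because the age field of the labels holds a date, and that date separates the animals exactly as sex does. Sex and date therefore cannot be told apart in any comparison by sex. The pieces of tissue were whole dissected regions, so a lower level can come from fewer cells of a type or from less RNA per cell, and these cannot be told apart.

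In GRCm38, Slc17a6 (ENSMUSG00000030500) lies on chromosome 7 at 51622006 to 51671119 and Slc17a7 (ENSMUSG00000070570) on chromosome 7 at 45163949 to 45176142, both on the plus strand. Both lie outside the stretch of the 10 interval genes used to check the deletion, which runs on chromosome 7 from 126699773 to 127027037. Slc17a8 (ENSMUSG00000019935) lies on chromosome 10 at 89574020 to 89621253 on the minus strand. Slc1a1 (ENSMUSG00000024935) lies on chromosome 19 at 28835049 to 28913960, Slc1a2 (ENSMUSG00000005089) on chromosome 2 at 102658659 to 102790784 and Slc1a6 (ENSMUSG00000005357) on chromosome 10 at 78780496 to 78814765, all on the plus strand. Slc1a3 (ENSMUSG00000005360) lies on chromosome 15 at 8634124 to 8710764 and Slc1a4 (ENSMUSG00000020142) on chromosome 11 at 20302180 to 20332713, both on the minus strand. Slc1a1 shares 2631 exon bases with the opposite-strand gene 4430402I18Rik, and whether the counting used strand is not given in the sources used here. That antisense gene held 4721 counts over all libraries, so values of Slc1a1 carry this uncertainty.

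The 250 bases upstream of the RefSeq start site (GRCm38.p6) are shown for 4 of the genes, the vesicular pair Slc17a7 and Slc17a6 and the carriers Slc1a3 and Slc1a6, which are higher in cerebellum, because the regional results turn on them and these windows hold no annotated exon. Each is written from 5′ to 3′ on the strand of the gene, and capitals mark every match to CAGNTG, the E-box form bound by neuronal basic helix-loop-helix factors, searched on both strands. RefSeq gave a window for all 8 genes and more than 1 window for Slc17a6 and Slc17a8. The windows of Slc1a1, Slc1a2 and Slc17a8 overlap an annotated exon by 86, 29 and 4 bases and are not shown. That of Slc1a2 lies inside the annotated gene, downstream of its outermost start.
Slc17a7, chr7:45163671-45163920, plus strand: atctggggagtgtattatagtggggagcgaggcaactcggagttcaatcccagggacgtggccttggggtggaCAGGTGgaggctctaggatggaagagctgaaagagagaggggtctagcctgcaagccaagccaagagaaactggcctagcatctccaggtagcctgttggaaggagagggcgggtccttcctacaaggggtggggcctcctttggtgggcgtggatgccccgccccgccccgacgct
Slc17a6, chr7:51621580-51621829, plus strand: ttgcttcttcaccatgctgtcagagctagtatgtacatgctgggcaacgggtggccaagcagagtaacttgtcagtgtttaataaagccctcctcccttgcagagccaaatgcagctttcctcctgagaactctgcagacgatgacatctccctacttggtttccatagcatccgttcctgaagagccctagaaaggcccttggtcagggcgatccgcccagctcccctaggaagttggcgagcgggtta
Slc1a3, chr15:8710808-8711057, minus strand: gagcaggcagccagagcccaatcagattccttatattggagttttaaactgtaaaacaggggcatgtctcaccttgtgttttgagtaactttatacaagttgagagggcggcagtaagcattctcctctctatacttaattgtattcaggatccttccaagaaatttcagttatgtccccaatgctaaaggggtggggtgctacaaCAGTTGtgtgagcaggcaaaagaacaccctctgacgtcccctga
Slc1a6, chr10:78780246-78780495, plus strand: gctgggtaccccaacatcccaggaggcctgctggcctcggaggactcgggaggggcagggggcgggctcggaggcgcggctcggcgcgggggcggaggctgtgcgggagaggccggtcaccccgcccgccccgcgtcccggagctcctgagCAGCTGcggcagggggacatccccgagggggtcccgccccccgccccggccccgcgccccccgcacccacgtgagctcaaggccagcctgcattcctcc

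The windows of Slc17a7, Slc1a2, Slc1a3 and Slc1a6 each hold 1 match to CAGNTG, the Slc17a6 window shown holds 0, and the other window of Slc17a6 holds 1. Of the 32851 upstream windows of this length in the table, 44.82% hold at least 1 match, so a match is common and describes the letters only. Base composition varied between the windows. The Slc1a6 window has 78.8% GC and 26 CG dinucleotides, the Slc17a7 window 61.2% and 9, and the Slc17a6 window shown 53.2% and 7. The Slc1a1 window has 70.4% and 27, and the Slc1a4 window 64.8% and 16. The Slc1a2 and Slc1a3 windows both have 44.8% GC, with 1 and 2 CG dinucleotides, below the median window of 52.4% GC and 6 CG dinucleotides. This is not particular to the astrocyte carriers. The other Slc17a6 window has 41.2% and 3, and the Slc17a8 windows have 57.2% and 5, and 44.8% and 3.

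Gene counts ran from 29244745 to 60751792 per library. The check genes of the deleted interval were lower in every deletion library than in every wild-type library: as mean log2 CPM less that of the region's wild-type libraries, they lay between -1.40 and -0.56 in deletion libraries and between -0.44 and 0.39 in wild-type libraries. CPM is the usual depth-scaled count, here on TMM-scaled library sizes. Marker lists that contain none of the 8 transporters were used to check the labelled tissue, as the mean log2 CPM over the list, and 3 libraries labelled striatum were led by another list. In wild-type animal W813 the hippocampal list (5.41) and the cortical list (4.66) were above the striatal list (3.91). In W815 the cortical list (5.34) was just above the striatal list (5.25), and in deletion animal D810 the thalamic list (5.17) was above the striatal list (4.79). Among the cerebellar libraries, that of deletion animal D809 stood apart, with a Purkinje cell list of 6.88 and a granule cell list of 6.52 against 8.37 to 9.49 and 8.01 to 9.81 in the other 15. Its hindbrain list (4.39) was the highest of the 16. In 10 of the 16 libraries labelled cortex, 6 of deletion and 4 of wild-type animals, the striatal list was above the cortical list. Over the cortical libraries the striatal list ran from 3.39 to 7.84 and the cortical list from 4.89 to 6.41, and in 0 of them was the hippocampal or thalamic list above the cortical one. Over the striatal libraries the striatal list ran from 3.91 to 8.91. Its median was 5.81 in wild-type cortex and 6.01 in wild-type striatum, and 6.84 and 6.57 in deletion animals. By these medians the striatal list did not separate the labelled regions. The cortical list had medians of 5.91 and 3.17 in wild type and 5.79 and 2.28 in deletion animals. For part of the results that rest on these libraries, values without them are also given.

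Slc17a7 was the most abundant vesicular transporter in wild-type cortex and cerebellum, and it was the most variable of the 8 genes in striatum. In wild-type cortex its lowest, median and highest levels were 1017, 1211 and 1517 CPM, and in wild-type cerebellum 323, 478 and 618 CPM. In wild-type striatum they were 5.98, 98.1 and 859 CPM. The 8 cortical values lay above all 8 cerebellar and all 8 striatal values, whereas the striatal values ran from far below to above the cerebellar ones. In the fit of the 24 wild-type libraries, Slc17a7 was lower in striatum than in cortex by a log2 fold change of -2.45 ± 0.71 (SE; edgeR's quasi-likelihood test, Benjamini-Hochberg adjusted p = 0.0175). Of all genes tested, 9.95% were called higher and 8.67% lower in this comparison. The call was lost without animal W806 (adjusted p = 0.0610) or W808 (0.0603) and in females alone, where the log2 fold change was -1.10 (adjusted p = 0.445), against -4.48 in males (adjusted p = 0.00268). It was made under 17 of the 20 other settings, among them the fit without W813 and W815 together. A setting that left out no wild-type animal repeats the reported fit and is counted among the 20.

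The cerebellar level of Slc17a7 was below the cortical level in 8 of 8 wild-type and in 8 of 8 deletion animals. The log2 fold change was -1.37 ± 0.64 and did not pass the test in the fit of all 3 regions (adjusted p = 0.0806), in which the striatal libraries enter the estimate of the spread. In a fit of the cortical and cerebellar libraries alone it was -1.37 ± 0.11 (adjusted p = 4.55e-08). In this comparison 24.2% of all genes were called higher and 24.7% lower. Cerebellum against striatum gave 1.08 ± 0.69 for Slc17a7 (adjusted p = 0.213). Without the animals W813 and W815 this difference was 2.16 (adjusted p = 0.0315), in males 3.09 (adjusted p = 0.00331) and in females -0.21 (adjusted p = 0.844).

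The striatal level of Slc17a7 moved with the cortical marker list. The 4 highest values were 859 CPM in W813, 663 in W815, 565 in W814 and 494 in the deletion animal D811, all females, and the other 12 libraries reached at most 185 CPM. The cortical excitatory neuron list was 3.54 to 5.34 in those 4 libraries and 1.63 to 3.69 in the others. The lowest values were 2.07 CPM in D802, 2.80 in D812 and 5.98 in W807, where the cortical list was 1.78, 1.67 and 1.63. The 8 cortical list genes summed to 80.4 to 446 CPM over the wild-type and 92.8 to 231 CPM over the deletion striatal libraries, and none was at 0 throughout a group. The part of cortical tissue in the striatal values was not tested. Leaving out the 3 libraries led by another list changed the wild-type striatal mean from 292 ± 346 CPM (SD, n = 8) to 135 ± 216 CPM (SD, n = 6).

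**Figure D1:**
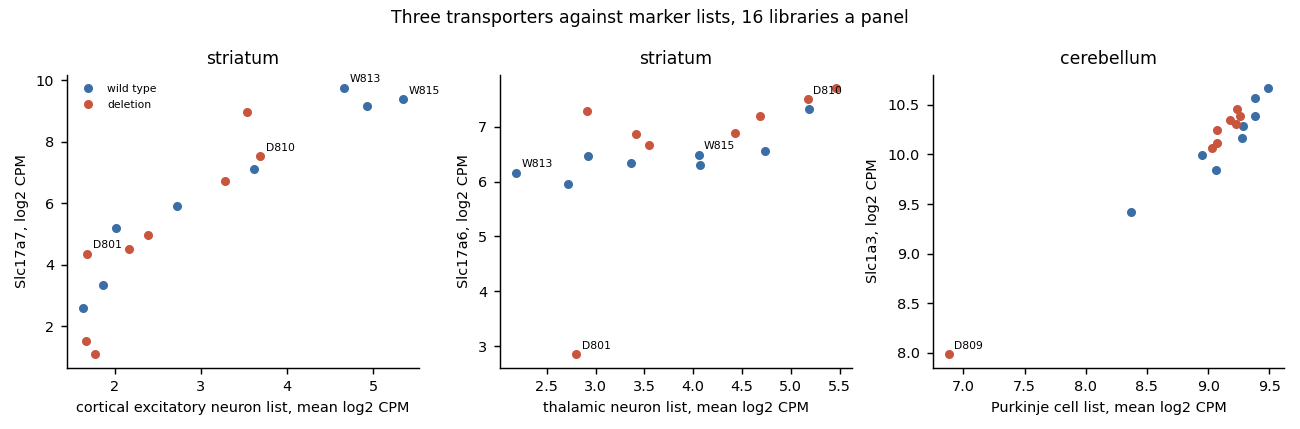
Log2 CPM of 3 transporters (vertical axes) against the mean log2 CPM of a marker list (horizontal axes), 16 libraries in each panel, wild type in blue and deletion in red. Striatal Slc17a7 is high where the cortical list is high (W813 and W815, 859 and 663 CPM), the striatal Slc17a6 value of D801 (7.15 CPM) sits below all others, and the cerebellar Slc1a3 value of D809 (254 CPM) goes with the lowest Purkinje cell list (6.88).

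Slc17a6 had its highest level in the libraries labelled striatum. In wild-type striatum the lowest, median and highest values were 61.8, 84.8 and 160 CPM, and in wild-type cortex 11.9, 33.5 and 44.5 CPM. In wild-type cerebellum they were 0.228, 25.9 and 105 CPM. The striatal values of the 8 wild-type animals did not overlap the cortical ones, and the cerebellar values spread across both ranges. Slc17a6 was higher in striatum than in cortex by 1.63 ± 0.54 (edgeR's quasi-likelihood test, adjusted p = 0.0392) and lower in cerebellum than in striatum by -1.35 ± 0.54 (adjusted p = 0.0421), where 22.4% of all genes were called higher and 25.5% lower. Cerebellum and cortex differed by 0.28 ± 0.53 (adjusted p = 0.694). The first call was lost without animal W805, W807, W808, W814, W815 or W816 (adjusted p up to 0.108), with a log2 fold change of 1.51 to 1.76 over the 8 animals left out in turn. It was also lost in males (0.180), in females (0.304), with no filter on low counts, without W813 and W815 together (0.0581) and without the cortical libraries led by the striatal list (0.103). In the fit of these regions alone it was 1.64 ± 0.24 (adjusted p = 0.000435). The second was lost without W807, W808, W814, W815 or W816 (up to 0.133), in males (0.209), in females (0.125) and in deletion libraries (0.0652). It was also lost without the cortical libraries led by the striatal list (0.0656) and in the fit of those regions alone (0.0938). Each of these calls was made under 9 of the 20 other settings, the repeat of the reported fit among them. Not every setting that lost the second call is named here.

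Within striatum, the highest Slc17a6 values were 210 CPM in D811, 182 in D810 and 160 in W814, the 3 libraries of the highest thalamic list (5.46, 5.17 and 5.19). The lowest was 7.15 CPM in D801, whose thalamic list was 2.80 and whose striatal list (8.91) was the highest of the 16. The order was not strict, since D812 had 157 CPM of Slc17a6 with a thalamic list of 2.91. The 8 thalamic list genes summed to 93.9 to 542 CPM over the wild-type and 85.1 to 545 CPM over the deletion striatal libraries, none at 0 throughout a group, and the part of thalamic tissue in the Slc17a6 values was not tested. In cerebellum, Slc17a6 was highest in D809 (141 CPM) and W813 (105 CPM), the libraries with the lowest granule cell lists (6.52 and 8.01), and lowest in W806 at 0.228 CPM, or 7 counts, where the granule cell list was the highest (9.81) and the hindbrain list was -3.94. Between these the order was not strict. D801 had 80.6 CPM with a granule cell list of 9.24, and W805 had 50.8 CPM with 9.57.

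Slc17a8 was the least abundant of the 8 genes in every region. Wild-type cortex had 1.38, 3.70 and 9.21 CPM and wild-type striatum 2.68, 5.18 and 10.7 CPM as lowest, median and highest values. Wild-type cerebellum had 0, 0.121 and 0.599 CPM, which is at most 20 counts, and a count of 0 in W814 allows up to 0.0978 CPM (3 counts, counting error only). Every cerebellar value was below every cortical and striatal value. The fall was -4.52 ± 0.55 from cortex to cerebellum (edgeR's quasi-likelihood test, adjusted p = 4.11e-07) and -5.10 ± 0.57 from striatum (adjusted p = 1.14e-07). Both calls were made under all 20 other settings, the repeat of the reported fit among them. Striatum and cortex differed by 0.58 ± 0.45 (adjusted p = 0.406). Without the 4 wild-type cortical libraries led by the striatal list, the remaining cortical values were 1.38 to 3.84 CPM, the difference of striatum from cortex was 1.51 (adjusted p = 0.0668) and that of cerebellum from cortex -3.58 (adjusted p = 4.30e-05). The highest striatal values were 18.9 CPM in D811 and 17.0 CPM in D801, both deletion animals, while D810, also a deletion animal, had the lowest at 2.28 CPM. In the striatal library of W813 the cholinergic list was -0.62, against 2.68 to 4.64 in the other 15, and its Slc17a8 value of 4.09 CPM was within the range of the others.

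The balance of the 3 vesicular forms can be read per length, as each gene's share of their summed CPM per kb of exon. Here and below, length is that of all annotated exons of a gene merged, not of the transcripts present. Comparisons between genes per length depend on that choice. Slc17a7 made up 95.5 to 98.9% of that sum in all 16 cortical libraries. In cerebellum it made up 75.5 to 99.9% in wild type and 48.7 to 96.6% in deletion animals, with D809 the lowest. In striatum the Slc17a7 share ran from 1.63 to 91.8% and that of Slc17a6 from 7.65 to 91.4%. Slc17a7 was above Slc17a6 per length in 16 of 16 cortical, 15 of 16 cerebellar and 7 of 16 striatal libraries. Slc17a8 reached at most 0.964% of the sum in cortex and 0.541% in cerebellum, and 41.4% in 1 striatal library, D801, which had little of both other forms.

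Slc1a2 and Slc1a3, the astrocyte carriers, had opposite regional orders. Slc1a2 in wild type had 1852, 2260 and 2821 CPM in cortex and 481, 654 and 963 CPM in cerebellum as lowest, median and highest values. In wild-type striatum it had 761, 1804 and 2697 CPM. The cerebellar values lay below all cortical ones and overlapped the striatal ones only through W807, the lowest striatal value. Slc1a2 was lower in cerebellum than in cortex by -1.76 ± 0.19 (edgeR's quasi-likelihood test, adjusted p = 5.47e-08) and than in striatum by -1.43 ± 0.19 (adjusted p = 1.25e-06). Striatum against cortex gave -0.34 ± 0.18 (adjusted p = 0.219).

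Slc1a3 in wild type had 439, 498 and 639 CPM in cortex, 468, 658 and 823 CPM in striatum and 687, 1197 and 1630 CPM in cerebellum. Every cerebellar value was above every cortical one, and W813 (687 CPM) alone fell within the striatal range. The rise from cortex to cerebellum was 1.20 ± 0.15 (edgeR's quasi-likelihood test, adjusted p = 3.89e-07) and from striatum to cerebellum 0.85 ± 0.15 (adjusted p = 3.63e-05). The striatal level was above the cortical level in 7 of 8 animals, by 0.34 ± 0.14 (adjusted p = 0.103). With the animal as a replicate block, this last difference was 0.32 ± 0.10 and passed the test (adjusted p = 0.0173).

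Per length, Slc1a2 exceeded Slc1a3 by a ratio of 2.85 ± 0.31 in wild-type cortex (SD, n = 8) and 1.77 ± 0.44 in striatum, and the ratio was 0.387 ± 0.144 in cerebellum. Slc1a2 was the higher of the pair in 16 of 16 cortical and 16 of 16 striatal libraries. Slc1a3 was the higher in 15 of 16 cerebellar libraries. The exception was D809, where the ratio was 2.79, close to the cortical mean. In that library Slc1a3 was 254 CPM, against 687 to 1630 in the other 15, and Slc1a2 was 1088 CPM, the highest of the 16. The astrocyte marker list of D809 (7.35) was within the range of the other cerebellar libraries (7.13 to 7.37), while its Bergmann glia list was the lowest (4.42 against 5.36 to 6.49). Bergmann glia are the astrocytes that ensheathe Purkinje cells.

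Slc1a6, the Purkinje cell carrier, showed the widest regional difference of the 8 genes in a rising direction. Wild-type cerebellum had 187, 269 and 422 CPM, wild-type striatum 8.84, 19.0 and 46.1 CPM and wild-type cortex 9.58, 11.5 and 16.4 CPM. The cerebellar values were all above those of the other regions, by 4.54 ± 0.29 over cortex (edgeR's quasi-likelihood test, adjusted p = 1.65e-11) and 3.79 ± 0.28 over striatum (adjusted p = 1.95e-10). Striatum was above cortex by 0.75 ± 0.25 (adjusted p = 0.0414), with overlapping values and 7 of 8 animals in that direction. With 1 wild-type animal left out, this small difference was called only without W814. Leaving out any other gave adjusted p of 0.0559 to 0.142, the fit of these regions alone gave 0.0593 and the fit without the cortical libraries led by the striatal list 0.237. The call was also lost in males, in females, with no filter on low counts and without W813 and W815 together. It was made under 6 of the 20 other settings, the repeat of the reported fit among them. Not every setting that lost it is named here.

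In striatum, Slc1a6 was highest where Slc1a2 was lowest. W807 had 46.1 CPM of Slc1a6 with 761 CPM of Slc1a2, D804 had 41.3 with 860, and D802 had 37.3 with 1005. Slc1a2 has 13133 bases of exon and Slc1a6 has 2152, and the libraries also differed in a length score, the mean centred log2 CPM of 4296 genes with long exons minus that of 1338 genes with short exons. The score was among the lowest in W807 (-0.89), W808 (-0.76), D804 (-0.72) and D802 (-0.60). With the score as a covariate, striatum against cortex gave 0.77 ± 0.17 for Slc1a6 (adjusted p = 0.00134) and -0.44 ± 0.13 for Slc1a2 (adjusted p = 0.00950), so the difference of Slc1a2 passed the test in that fit alone. The score was added after the data had been seen, and its part in the striatal values was not tested further.

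Slc1a1, the neuronal carrier, and Slc1a4, the neutral amino acid exchanger, were both lower in cerebellum. Slc1a1 in wild type had 113, 126 and 142 CPM in cortex, 72.1, 124 and 138 CPM in striatum and 33.9, 46.8 and 60.4 CPM in cerebellum. Slc1a4 had 64.7, 80.9 and 96.5 CPM in cortex, 79.2, 91.7 and 130 CPM in striatum and 21.4, 38.1 and 54.0 CPM in cerebellum. For both genes the cerebellar values did not overlap those of the other regions, and the cortical and striatal values overlapped. Slc1a1 fell by 1.45 ± 0.12 from cortex to cerebellum (edgeR's quasi-likelihood test, adjusted p = 6.26e-10) and by 1.32 ± 0.12 from striatum to cerebellum (adjusted p = 2.90e-09). Slc1a4 fell by 1.10 ± 0.15 (adjusted p = 1.58e-06) and 1.35 ± 0.15 (adjusted p = 1.06e-07). Striatum and cortex differed by -0.12 ± 0.11 for Slc1a1 (adjusted p = 0.492) and 0.25 ± 0.15 for Slc1a4 (adjusted p = 0.254).

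**Figure D2:**
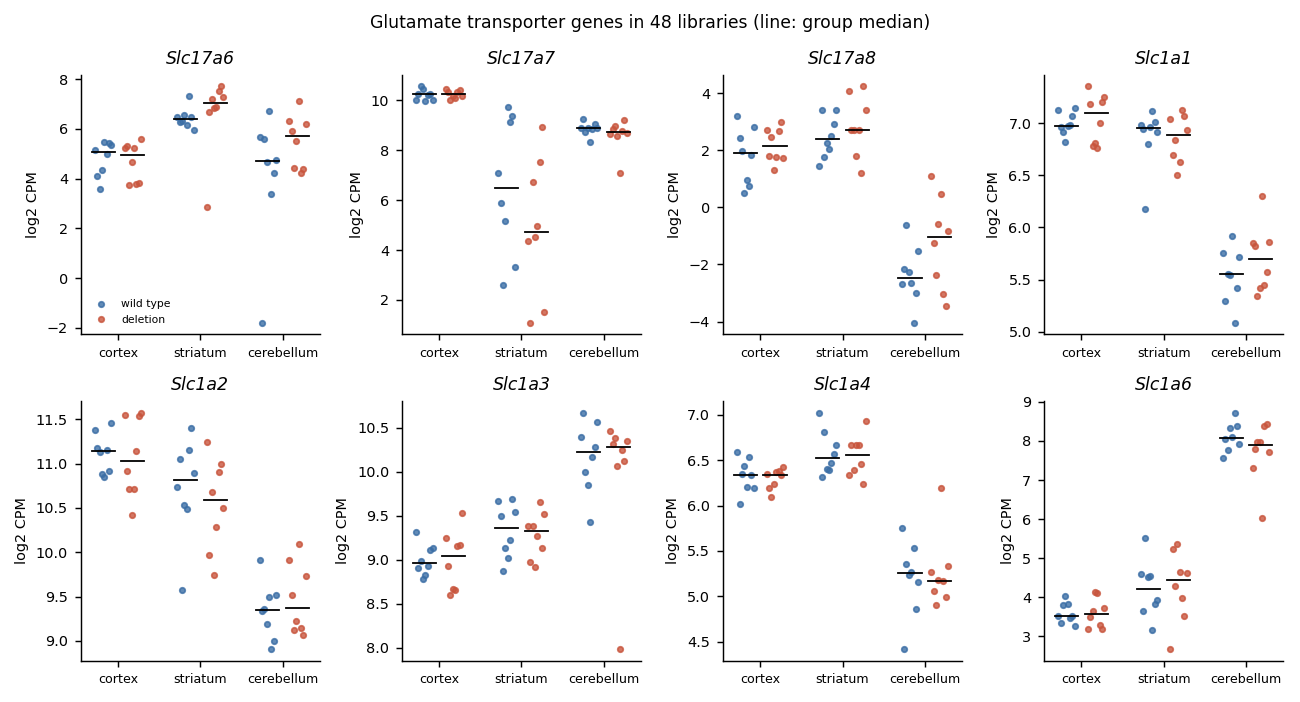
Log2 CPM (vertical axes) of the 8 transporter genes in cortex, striatum and cerebellum, 1 point for each of the 48 libraries, wild type in blue and deletion in red, with the line at the group median. Slc1a6 stands highest in cerebellum (187 to 422 CPM in wild type), Slc17a7 spreads most in striatum (5.98 to 859 CPM in wild type), and deletion and wild-type points overlap in each panel.

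Over the 8 genes, 2 were called higher and 1 lower in striatum than in cortex, 2 higher and 4 lower in cerebellum than in cortex, and 2 higher and 5 lower in cerebellum than in striatum. Of all genes, 9.95% were called higher and 8.67% lower in the first of these comparisons, 24.2% and 24.7% in the next and 22.4% and 25.5% in the last, so a call between cerebellum and another region was common. Without the cortical libraries led by the striatal list, 1 transporter was called in striatum against cortex, Slc17a7 (-2.69, adjusted p = 0.0381). The median log2 fold change of the 8 was 0.30, -1.23 and -1.34 in these comparisons, beside 0.016, 0.036 and 0.0028 over all 17633 genes tested. With the animal as a replicate block, the count in striatum against cortex was 4, Slc1a3 being added, and the calls over all genes were 2749 higher and 2607 lower in place of 1754 and 1529. These comparisons share groups and are given side by side. The cerebellar calls of Slc17a8, Slc1a1, Slc1a2, Slc1a3, Slc1a4 and Slc1a6 were made under all 20 other settings, among them deletion in place of wild-type libraries, each sex alone and each animal left out. These 20 include the setting that left out no wild-type animal and so repeats the reported fit.

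**Figure D3:**
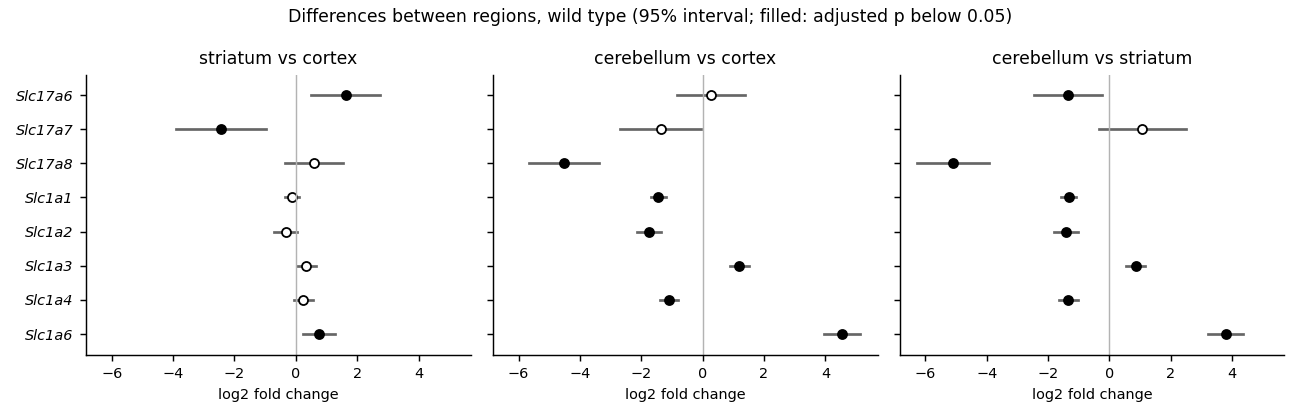
Log2 fold change (horizontal axes) of each transporter between regions in wild-type animals, with 95% intervals, filled where the adjusted p was below 0.05. The intervals for cerebellum lie clear of 0 for 6 genes against both other regions, from -5.10 for Slc17a8 to 4.54 for Slc1a6, whereas those of Slc17a6 and Slc17a7 are wide.

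The order of the levels per length differed between the regions. In wild-type cortex, Slc17a7 was first at 225 ± 33.2 CPM per kb (SD, n = 8) and Slc1a2 next at 171 ± 27.3, and their values overlapped although Slc17a7 was higher in 6 of 8 libraries. Slc1a3 followed at 60.3 ± 7.71, Slc1a4 at 20.6 ± 2.69 and Slc1a1 at 15.5 ± 1.18. Slc1a6 (5.71 ± 1.09) and Slc17a6 (5.67 ± 2.35) did not differ beyond their spread, and Slc17a8 was last at 0.900 ± 0.594 CPM per kb. Cortical Slc1a4 was above Slc1a1 in 8 of 8 libraries, with ranges that overlapped.

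In wild-type striatum, the astrocyte carriers came first, Slc1a2 at 137 ± 45.3 and Slc1a3 at 76.8 ± 16.1 CPM per kb, with Slc1a2 the higher in 8 of 8 libraries. Slc17a7 came next by its mean, at 54.1 ± 64.2, a spread larger than the mean, and overlapped both Slc1a3 and Slc1a4 (24.6 ± 4.35). Slc17a6 (16.8 ± 5.55), Slc1a1 (14.3 ± 2.44) and Slc1a6 (9.70 ± 5.41) overlapped their neighbours, and Slc17a8 was last at 1.31 ± 0.667.

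In wild-type cerebellum, Slc1a3 (139 ± 36.6 CPM per kb) and Slc1a6 (132 ± 35.0) led and did not differ beyond their spread, with Slc1a3 the higher in 4 of 8 libraries. Slc17a7 was next at 88.0 ± 15.4 and Slc1a2 at 50.5 ± 11.5. Slc1a4 (9.66 ± 2.54), Slc17a6 (6.60 ± 6.08) and Slc1a1 (5.70 ± 1.03) overlapped one another, and Slc17a8 was last at 0.0385 ± 0.0400. By merged exon length, a Purkinje cell carrier and the Bergmann glia carrier thus had overlapping levels in this tissue, and both were above the granule cell vesicular transporter by their means.

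**Figure D4:**
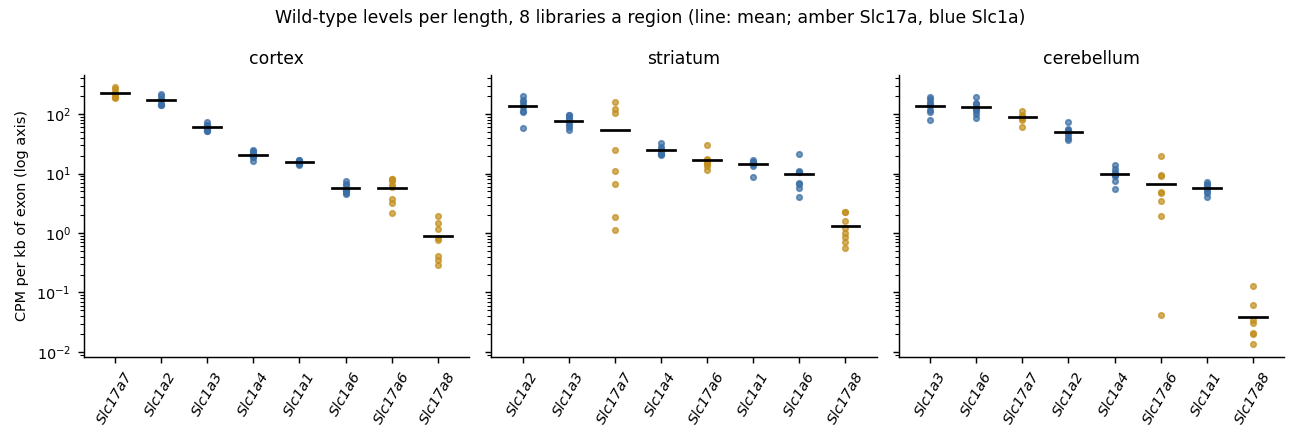
Wild-type levels in CPM per kb of exon (vertical axis, log scale) for the 8 genes in each region, ordered by their mean (line), 1 point for each of 8 libraries, with the vesicular genes in amber and the SLC1 genes in blue. Slc17a7 leads in cortex (225), Slc1a2 in striatum (137) and Slc1a3 in cerebellum (139). The single value of 0, Slc17a8 in the cerebellum of W814, is not drawn.

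No transporter passed the test between deletion and wild-type animals in any region. With the interval present once in place of the usual pair of copies, 0 of 8 transporters were called in cortex, 0 of 8 in striatum and 0 of 7 in cerebellum by edgeR's quasi-likelihood test, in which 0.130%, 0.128% and 0.138% of all genes tested were called. At an unadjusted p under 0.05 the count was also 0 in each region. Of all genes tested, 343 of 16877 in cortex, 571 of 17198 in striatum and 346 of 16672 in cerebellum were under it. For so few transporters a count of 0 is near that share and says nothing particular about them. DESeq2 called 0 as well, and of all genes 4 higher and 30 lower in cortex, 12 and 37 in striatum and 6 and 25 in cerebellum. Slc17a8 fell below the filter on low counts in cerebellum, where it had 0 to 66 counts. In each region the deletion values of every transporter overlapped the wild-type values. The median log2 fold change over the tested transporters was 0.013 in cortex, -0.027 in striatum and 0.049 in cerebellum, beside 0.0038, -0.0060 and -0.0050 over all genes tested.

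In cortex the intervals were narrow for most of the genes. Slc17a7 had 1025, 1227 and 1406 CPM in deletion animals as lowest, median and highest values, which fell within the wild-type range given above. Its log2 fold change was 0.02 with a 95% interval of -0.18 to 0.21. The others ran from -0.04 for Slc1a4 (-0.22 to 0.13) to 0.21 for Slc17a8 (-0.61 to 1.03). Slc1a2 had 1374, 2095 and 3052 CPM in deletion cortex, a wider spread than in wild type, and gave -0.02 (-0.36 to 0.32). Slc1a3 gave 0.01 (-0.25 to 0.27), Slc1a1 0.05 (-0.13 to 0.24), Slc1a6 0.03 (-0.34 to 0.40) and Slc17a6 -0.02 (-0.71 to 0.67). Without the 10 cortical libraries led by the striatal list, 2 deletion and 4 wild-type libraries remained, and again 0 of 8 were called. In that fit Slc17a6 gave 1.25 ± 0.29 (edgeR's unadjusted p = 0.00370, adjusted p = 0.135), Slc1a1 0.37 ± 0.14 (unadjusted p = 0.0335, adjusted p = 0.166) and Slc1a6 -0.61 ± 0.24 (unadjusted p = 0.0361, adjusted p = 0.169). Of all 17483 genes tested there, 4632 had an unadjusted p under 0.05 and 1 was called. The cortical estimates of Slc17a6, Slc1a1 and Slc1a6 thus depend on which libraries are kept. The kept deletion libraries, D801 and D802, were both male, while W807 and W808 were male and W813 and W814 female. Length scores were 0.79 and 0.0017 in D801 and D802, and -0.32, -0.62, -0.54 and -0.20 in those 4 wild-type libraries. Over the 16 cortical libraries, r with that score was 0.912 for Slc1a1, -0.671 for Slc1a6 and 0.29 for Slc17a6. The parts of striatal tissue and of the length score in these values were not tested.

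In striatum the intervals of the vesicular genes were wide. Slc17a7 had 2.07, 26.9 and 494 CPM in deletion animals and a log2 fold change of -1.11 (95% interval -3.12 to 0.91). Without the 3 libraries led by another list it was -0.66, and with the cortical, thalamic, striatal and choroid plexus lists as covariates it was 0.999, the opposite direction. Neither passed the test. Slc17a6 had 7.15, 132 and 210 CPM and gave 0.46 (-0.37 to 1.29), or 0.68 without D801, the lowest value (unadjusted p = 0.00235, adjusted p = 0.522). With the same covariates the log2 fold change was 0.01. Without the 3 libraries led by another list, the mean of Slc17a6 was 122 ± 62.2 CPM in deletion animals (SD, n = 7), in place of 130 ± 61.3. In wild-type animals it was 94.0 ± 34.2 CPM (SD, n = 6), in place of 90.7 ± 29.9. Of all genes, 864 of 17323 had an unadjusted p under 0.05 by edgeR without D801, and 468 of 17342 in females alone. In females alone Slc17a6 gave 0.79 ± 0.31 (unadjusted p = 0.0314, adjusted p = 1.0), and in males 0.12 ± 0.66.

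The SLC1 genes of striatum had narrower intervals. Slc1a1 gave -0.02 (-0.26 to 0.22), Slc1a4 -0.04 (-0.29 to 0.22) and Slc1a3 -0.06 (-0.35 to 0.22). Slc1a2 had 860, 1544 and 2431 CPM in deletion striatum and gave -0.18 (-0.67 to 0.31). Slc1a6 gave 0.15 (-0.59 to 0.89). Slc17a8 had 2.28, 6.57 and 18.9 CPM in deletion striatum and gave 0.54 (-0.33 to 1.42), and its 2 highest deletion values, in D811 and D801, were above all wild-type values.

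In cerebellum the differences of 6 of the 7 tested transporters were nearer 0 without the deletion library D809, and that of Slc1a4 was not. Those of Slc1a3 and Slc1a4 changed direction. Slc1a6 had 65.4, 236 and 342 CPM in deletion animals and a log2 fold change of -0.30 (95% interval -0.86 to 0.25), or -0.15 without D809. Slc1a3 had 254, 1241 and 1406 CPM and gave -0.11 (-0.65 to 0.44), or 0.05 without D809. Slc17a7 had 135, 426 and 591 CPM and gave -0.20 (-0.64 to 0.24), or -0.07 without it. Slc1a6, Slc1a3 and Slc17a7 were lowest in D809, whose Purkinje and granule cell lists were also the lowest. Without D809, the deletion mean was 1244 ± 121 CPM for Slc1a3 (SD, n = 7) in place of 1120 ± 368 CPM (SD, n = 8), and 253 ± 66.7 CPM for Slc1a6 in place of 230 ± 90.7 CPM. The summed Purkinje cell list was 1034 to 7145 CPM over the deletion and 2967 to 8113 CPM over the wild-type libraries, with none of its 7 genes at 0, and its part in these values was not tested.

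The remaining cerebellar values were also within the spread. Slc17a6 had 18.6, 52.7 and 141 CPM in deletion animals and gave 0.68 (-0.77 to 2.13), or 0.33 without D809 and 0.50 without the wild-type animal W806. Slc1a1 gave 0.16 (-0.15 to 0.48), or 0.060 without D809, and Slc1a2 0.15 (-0.23 to 0.53), or 0.026 without it. Slc1a4 gave 0.05 (-0.38 to 0.48), or -0.13 without it. D809 had the highest deletion value of Slc17a6 and of these 3 genes, with 78.8 CPM for Slc1a1, 1088 CPM for Slc1a2 and 73.0 CPM for Slc1a4.

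**Figure D5:**
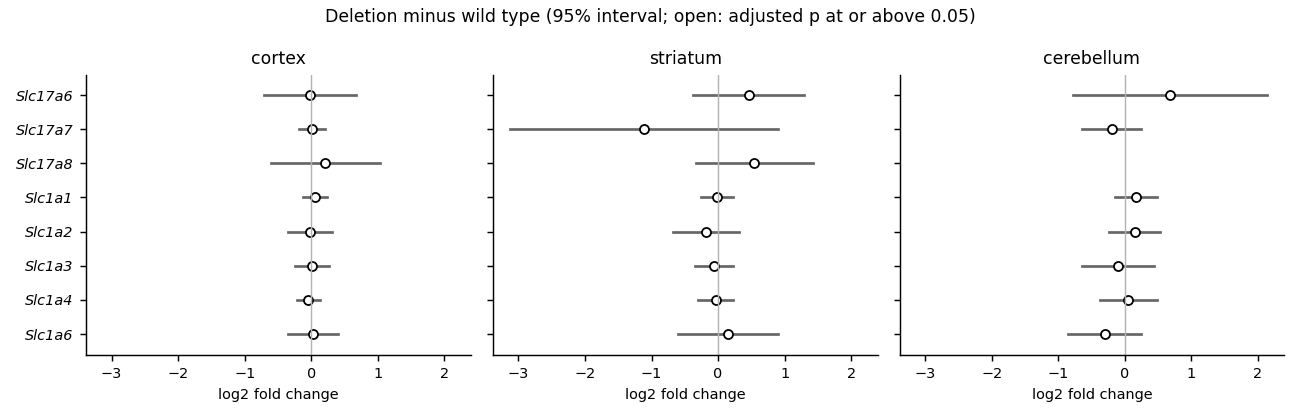
Log2 fold change of each transporter, deletion minus wild type (horizontal axes), with 95% intervals, in cortex, striatum and cerebellum. All points are open, since none had an adjusted p below 0.05, and the widest interval is that of striatal Slc17a7, from -3.12 to 0.91. Slc17a8 was not tested in cerebellum.

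No difference of the genotype effects between regions or sexes passed its test. The genotype by region and genotype by sex terms called 0 of the transporters, and 0% of all genes tested were called. The largest was that of Slc17a8 in cerebellum against cortex, 1.57 ± 0.79 (edgeR's quasi-likelihood test, unadjusted p = 0.0518, adjusted p = 1.0), which rests on 0 to 66 cerebellar counts. The next was that of Slc17a7 in striatum against cortex, -1.35 ± 0.94 (adjusted p = 1.0).

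By sex, with sex and label date not separable, 0 of the transporters were called in any region, where 0.0356% of all genes tested were called in cortex, 0.134% in striatum and 0.0420% in cerebellum. Striatal Slc17a7 came closest. Females had 2.80, 339 and 859 CPM as lowest, median and highest values and males 2.07, 29.6 and 137 CPM, with overlapping ranges. The male minus female log2 fold change was -2.67 ± 0.99 (edgeR's quasi-likelihood test, unadjusted p = 0.0163, adjusted p = 0.0988). Of 17198 genes tested by edgeR in striatum, 5661 had an unadjusted p under 0.05. DESeq2 called striatal Slc17a7 (adjusted p = 0.0367), in a fit that called 921 of 17925 genes higher and 1452 lower. The 4 libraries of the most Slc17a7 were all females with high cortical lists, so the sex difference and the cortical list move together, and their parts were not tested. The next largest in striatum was Slc1a6, 0.64 ± 0.35 (adjusted p = 0.208).

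The other genes of the glutamate and glutamine cycle were described from lists of enzymes, carriers and partner proteins, 33 found genes of which 32 were tested. By genotype, 0 were called in each region. By edgeR's quasi-likelihood test, the genes of small unadjusted p-values, all with adjusted p above 0.05, included Glul, glutamine synthetase (-0.13, unadjusted p = 0.114), and Gls2, a glutaminase (-0.23, unadjusted p = 0.151), in cortex. In striatum they included the aspartate transaminases Got1 (0.17, unadjusted p = 0.116) and Got2 (0.11, unadjusted p = 0.193). In cerebellum they included Slc1a5, a neutral amino acid exchanger (-0.32, unadjusted p = 0.120), and Got2 (0.13, unadjusted p = 0.210). None of these passed the test after edgeR's Benjamini-Hochberg adjustment.

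Between wild-type regions, 2 of the 32 cycle genes were called higher and 5 lower in striatum against cortex, where 9.95% and 8.67% of all genes were. In cerebellum against cortex the counts were 4 and 9, beside 24.2% and 24.7% of all genes, and in cerebellum against striatum 7 and 9, beside 22.4% and 25.5%. These counts lie near the share of all genes and say nothing particular about the list. With the animal as a replicate block the first count was 12 in all. Slc38a1, a glutamine transporter, rose from cortex to striatum (0.62 ± 0.20, edgeR's quasi-likelihood test, adjusted p = 0.0369) and from cortex to cerebellum (1.28 ± 0.21, adjusted p = 1.62e-05). Slc38a2, another glutamine transporter, was higher in cerebellum than in cortex by 0.93 ± 0.12 (adjusted p = 1.01e-06) and than in striatum by 0.96 ± 0.12 (adjusted p = 7.88e-07). Glul was lower in cerebellum than in cortex by -0.72 ± 0.10 (adjusted p = 2.11e-06), the same direction as Slc1a2. Slc7a11, the cystine and glutamate exchanger, and Slc17a5, a lysosomal sialic acid carrier of the Slc17 family, were lower in cerebellum than in cortex by -0.51 and -0.48. Striatum was lower than cortex in Arl6ip5, a partner of the Slc1a1 protein (-0.55), and in Gls2 (-0.52). Glud1, glutamate dehydrogenase, was higher there by 0.25. Cerebellum was above striatum in Gls2 by 0.86 and in Slc38a1 by 0.67, and below it in Slc7a11 by -0.53, in Glul by -0.48 and in Slc17a5 by -0.31.

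For each transporter the genes of most similar pattern were taken over the 16 libraries of the region of its highest wild-type level, and for Slc17a7 also over those of striatum, by Pearson's r of log2 CPM among genes of at least 1 CPM. These are descriptions of 16 libraries of shared dissection and depth. In striatum, Slc17a7 was most like Emx1 (r = 0.959) and Neurod2 (0.949), transcription factors of cortical excitatory neurons, and Rtn4rl2 (0.932). Slc17a6 was most like Nhlh2 (0.938), Adgra1 (0.922) and Lhx9 (0.920), the last a transcription factor of thalamic and midbrain neurons. Without the 2 libraries farthest from the median of Slc17a6, these fell to 0.862, 0.733 and 0.636, so the likeness of Adgra1 and Lhx9 rests in part on those libraries. Slc17a8 was most like Pde8b (0.918), Dclk3 (0.915) and Strip2 (0.898). In cortex, Slc17a7 was most like Tcof1 (0.909), Vps8 (0.902) and Lasp1 (0.899), other genes than in striatum.

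In cerebellum, Slc1a3 was most like Car8 (r = 0.987), a Purkinje cell gene, Gabra6 (0.983), a granule cell receptor subunit, and Cep76 (0.978). Without the 2 libraries farthest from the median of Slc1a3, these were 0.877, 0.885 and 0.808. Done the same way for the other transporters except Slc17a6, whose lower values are given above, r was 0.843 to 0.977. Slc1a6 was most like Eps8l2 (0.990), Lrrc38 (0.976) and Dlx4os (0.973). In cortex, Slc1a1 was most like Hectd2 (0.978), Srrm4 (0.973) and Atp2c1 (0.971), and Slc1a2 was most like Opcml (0.964), Nr2c2 (0.962) and Marf1 (0.961). Cortical Slc1a1, Slc1a2 and Slc1a3 also moved with the length score (r = 0.912, 0.912 and 0.906). Striatal Slc1a4 was most like Gm5124 (0.955) and 2810004N23Rik (0.925).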

How the data were processed

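RNA sequencing counts of 48 libraries (16 mice, 3 regions, 6 groups of 8) were used. The authors deposited 1 table of raw, whole-number read counts per gene with Ensembl identifiers. STAR 2.4.2a, SAMtools, Picard and FastQC 0.10.1 appear in the submitters' processing notes, which also name the builds GRCm38 and mm8 with no role. For the counting tool, its annotation and its strand setting, nothing was given in the sources used here. Per the labels' protocols, the mRNA kit kept the strand.

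Of 47161 rows, 92 were spike-in controls (0.0614 to 1.09% of counts) and were left out. Symbols, coordinates and exon lengths were taken from the GENCODE annotation of GRCm38 for 46574 of 47069 identifiers. Gene counts were 29244745 to 60751792 per library. Reads carry no molecular identifiers here, so intervals from counts cover counting error only.

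Deletion was compared with wild type within each region by edgeR's quasi-likelihood test (robust, TMM scaling, low-count filter by genotype, sex as covariate). Regions were compared in 1 fit of the 24 wild-type libraries with sex as covariate. Benjamini-Hochberg adjustment ran over all genes tested, and genes were called under 0.05. Tests were 2-sided. Log2 CPM used a prior count of 2. Versions were R 4.3.3, edgeR 4.0.16, limma 3.58.1 and DESeq2 1.42.0. The edgeR steps were also run on simulated counts, drawn independently for each gene. Such counts lack variation shared by many genes of a library, so that run cannot test the fits for it. The labels give 1 number to 1 animal across regions. Over 12133 genes, deviations correlated within an animal with medians of 0.462 (cortex and striatum), 0.501 (cortex and cerebellum) and 0.281 (striatum and cerebellum), against -0.103, -0.033 and -0.047 for other animals of the genotype, so the animal block was run as an alternative.

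The transporters and lists were chosen with earlier results of these data known. All 8 transporters are named in each comparison. Of the cycle genes, up to 3 called in each direction are named, or the 3 of smallest p where none was called, and for likeness the 3 genes of highest r. Some genes that this rule selects are not reported here. One listed gene, Pc, was not matched by symbol. Alternatives were RLE scaling, DESeq2, no low-count filter, no sex covariate, each sex alone, marker lists as covariates, 1 fit of all libraries, deletion libraries for the regions, the animal block and leaving out animals. The length score, the cortical list as covariate, the fits of single region pairs, leaving out animals in the region fits and leaving out libraries led by another list were chosen after the data had been seen.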

Additional observations from a re-analysis of the deposited data

Results flagged for a closer look

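On the log2 CPM scale, 48 groups of 8 libraries were tested for a single value far from the others. The measure was the gap to the nearest value over the whole range, by Dixon's criterion. Of the 48 groups, 8 had one, and chance gives about 1 in 20 independent groups. The groups share libraries, so the 8 flags are not independent. In the cerebellum of deletion animals, 4 of them were the library of D809: Slc17a7 (134.8 CPM), Slc1a3 (253.7 CPM) and Slc1a6 (65.4 CPM) were the lowest of their group and Slc1a4 (73.03 CPM) was the highest. That library also had the lowest Purkinje, granule cell and Bergmann glia lists. In the cerebellum of wild-type animals, Slc17a6 in W806 (0.2278 CPM) lay far below the others.

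In striatum, Slc17a6 was far above the other wild-type values in W814 (160.1 CPM) and far below the other deletion values in D801 (7.153 CPM). Striatal Slc1a1 in W807 (72.15 CPM) was far below the other wild-type values, and W807 had the lowest length score of the striatal libraries (-0.89).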

How the results depend on the processing

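By genotype, 533 of 607 alternative log2 fold changes kept their direction and 0 were called. By region, 477 of 480 kept their direction, 434 kept their side of the threshold and 0 called values turned. Of the reversed genotype values, not all were small beside their SE, as for cortical Slc17a6 and Slc1a6 without the libraries led by the striatal list. Every reversed genotype value was uncalled, and their cause was not tested. In cortex they were, in males alone, 0.48 for Slc17a6, -0.0858 for Slc17a7, -0.13 for Slc17a8, -0.12 for Slc1a3 and -0.0269 for Slc1a6, and in females alone 0.15 for Slc1a2 and 0.0446 for Slc1a4. With marker lists as covariates they were 0.0504 for Slc17a6 and -0.0472 for Slc17a8, with the length score -0.0096 for Slc1a1 and -0.0846 for Slc1a3, and in 1 fit of all libraries -0.0175 for Slc17a7. Without the 10 cortical libraries led by the striatal list they were 1.25 for Slc17a6, -0.143 for Slc17a7, 0.230 for Slc1a2 and -0.608 for Slc1a6. In striatum, with the cortical list among the covariates, they were 0.999 for Slc17a7, 0.16 for Slc1a1, 0.0693 for Slc1a2, 0.0187 for Slc1a3 and -0.12 for Slc1a6. Striatal Slc1a1 was 0.0041 with no filter, 0.0233 in males and 0.0035 with the length score, Slc1a3 and Slc1a4 were 0.0129 and 0.0601 in females, and Slc1a6 was -0.0186 in males. In cerebellum they were -0.0136 for Slc1a2, 0.0398 for Slc1a3 and -0.17 for Slc1a4 in males, and 0.10 for Slc1a3 and -0.13 for Slc1a4 with marker lists as covariates.

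Leaving out each animal in turn gave, by genotype in cortex, -0.15 to 0.13 for Slc17a6, -0.0218 to 0.0581 for Slc17a7, -0.12 to 0.0553 for Slc1a2, -0.066 to 0.0714 for Slc1a3 and -0.0815 to 0.0966 for Slc1a6. It gave, in striatum, -0.084 to 0.0282 for Slc1a1, -0.11 to 0.0054 for Slc1a3 and -0.0983 to 0.0323 for Slc1a4, and, in cerebellum, -0.17 to 0.0519 for Slc1a3 and -0.13 to 0.16 for Slc1a4. For Slc17a6 in cerebellum against cortex the range was -0.11 to 0.44.

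With the animal as a replicate block, Slc17a6 in cerebellum against cortex was -0.0527, the genotype by region difference of Slc17a8 in striatum against cortex was -0.0586, and 12 cycle genes were called in striatum against cortex in place of 7. The block added Slc1a3 in that comparison and changed no other call of a transporter. Cerebellum against striatum gave -0.21 for Slc17a7 in females. The 3 transporters called in striatum against cortex were 1 with no filter, 1 in males, 0 in females, 1 without W813 and W815, 1 without the cortical libraries led by the striatal list, 5 with the length score and 0 to 2 with each animal left out. The 7 cycle genes called there were 3 in males, 0 in females and 15 with the length score. In females 1 gene of all was called higher and 0 lower in that comparison, in males 954 and 940, and with the length score 3400 and 3554, beside 1754 and 1529. Cycle genes called in cerebellum against cortex were 8 in males in place of 13. In cerebellum against striatum they were 10 in deletion libraries, 7 in males, 10 in females, 10 without W813 and W815 and 9 to 15 with each animal left out, in place of 16. By sex, DESeq2 called 1 transporter in striatum, Slc17a7, and 921 and 1452 genes of all, against 23 by edgeR. Each sex alone has 4 animals a group. No wild-type animal had a thalamic list above its striatal list, so leaving out such animals repeats the reported region values. That repeat is counted among the 20 other settings and the 480 region values.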
